A study of Mus musculus with 6 samples.

Results

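The genes described here encode the core of the basement membrane: the laminin chains Lama1, Lama5, Lamb1 and Lamc1, the collagen IV chains Col4a1 and Col4a2, the nidogens Nid1 and Nid2, the heparan sulfate proteoglycan perlecan (Hspg2), and Sparc, a secreted protein that binds collagen. All probes carrying one of these 10 gene symbols in the platform annotation were taken, 15 of the 45281 probes on the array, and 13 of them, for 9 of the 10 genes, were above background on at least 3 of the 6 arrays. The set was put together with Lama1 already known to differ between the groups, that is, it was chosen by Chd1 shRNA and control intensities of these same arrays, and the differences between groups below are a description and no independent test. RNA came from mouse embryonic stem cells electroporated with a pHYPER vector carrying a short hairpin RNA (shRNA) against the chromatin remodeller Chd1, in 3 samples, or transfected as control, in 3 samples. The sources used here do not name the insert of the control vector. All 6 cultures grew on mitomycin C-inactivated mouse embryonic fibroblasts with leukemia inhibitory factor in medium of 15% serum, and cells were selected in puromycin for 48 h from 24 h after electroporation. Each sample was read on 1 Illumina bead array, and the arrays of each group lay in neighbouring positions of 1 chip, and thus chip position cannot be told apart from group.

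A laminin is a trimer of an alpha, a beta and a gamma chain that assembles inside the cell, and the alpha chain carries the main sites for cell receptors. Laminins and collagen IV each form a network under the cell layer, and nidogen and perlecan tie these networks together. In the early mouse embryo the trimer of the Lama1, Lamb1 and Lamc1 chains is made by the cells that line the first basement membranes, and collagen IV is a heterotrimer of the Col4a1 and Col4a2 chains. Fibroblasts also make several of these proteins, among them Sparc, collagen IV and perlecan.

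The pair Col4a1 and Col4a2 is shown by sequence, because these neighbouring genes are transcribed away from each other and gave different patterns on the arrays. The RefSeq promoter table (GRCm38.p6; windows of 250 bases before to 50 after a start) held 7 of the 10 genes, and Lama1, Lamc1 and Nid2 had no entry. The windows are chr8:11312777-11313076 on the minus strand for Col4a1 and chr8:11312555-11312854 on the plus strand for Col4a2. Capitals mark the 78 bases, 26% of each window, that both windows contain, read on opposite strands.
Col4a1: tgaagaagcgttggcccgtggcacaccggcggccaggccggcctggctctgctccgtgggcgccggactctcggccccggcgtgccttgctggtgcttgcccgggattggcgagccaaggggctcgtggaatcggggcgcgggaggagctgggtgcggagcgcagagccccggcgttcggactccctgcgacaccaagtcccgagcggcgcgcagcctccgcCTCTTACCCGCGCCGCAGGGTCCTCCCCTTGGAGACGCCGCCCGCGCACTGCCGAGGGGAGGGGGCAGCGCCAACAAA
Col4a2: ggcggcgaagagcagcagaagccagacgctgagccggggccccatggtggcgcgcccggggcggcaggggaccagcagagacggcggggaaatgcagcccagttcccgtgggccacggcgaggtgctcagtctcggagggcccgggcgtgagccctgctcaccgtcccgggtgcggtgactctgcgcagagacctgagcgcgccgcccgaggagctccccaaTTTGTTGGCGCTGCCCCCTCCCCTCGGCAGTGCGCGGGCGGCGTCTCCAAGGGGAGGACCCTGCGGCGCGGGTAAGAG
Both strands of the windows were searched for the GC box letters GGGCGG. They were searched in the same way for the CCAAT box, and lastly for the letters AGATAA, which factors of the GATA family can bind. No matches of different motifs shared bases in these windows. GGGCGG was present in 6 of the 7 windows, Sparc being the one without it, against 35.7% of the 32851 promoter windows in the table. CCAAT was present in 4 of the 7 (Col4a1, Col4a2, Lamb1 and Nid1), against 37.4%, and AGATAA in 0 of the 7, against 11.2%. Inside the shared stretch lay 1 GGGCGG, found on the minus strand of the Col4a1 window and on the plus strand of the Col4a2 window. It was the only GGGCGG of the Col4a1 window, while the Col4a2 window held others. These windows are thus not independent in the count of GGGCGG.

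Signal is given as log2 intensity after background correction and quantile normalization, and a log2 fold change is the Chd1 shRNA mean minus the control mean. Levels of different probes are not compared. The arrays detected 16285 to 17391 probes in Chd1 shRNA and 15663 to 15925 in control. On Chd1 probe ILMN_1258834 the signal was 5.95, 5.95 and 5.29 in Chd1 shRNA replicates 1, 2 and 3, against 7.70, 8.81 and 6.91 in control replicates 1, 2 and 3, so on this probe the targeted transcript was lower on every array labelled Chd1 shRNA. The same held for 3 of the 4 Chd1 probes, with log2 fold changes of -2.07, -1.92 (ILMN_1254296) and -1.15 (ILMN_1246790), and on the other, ILMN_2958382, the groups overlapped. All 14 pluripotent cell markers passed the detection filter. Whether the replicates were separate cultures is not in the labels, so the errors rest on the spread between these samples, which may be technical. Except for Lama1 minus partner chains, the SEs come from a fit that draws the variance of each gene toward that of all genes.

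Lama1, the alpha chain of laminin 111, had lower signal in Chd1 shRNA. Its probe ILMN_2973288 read 8.08, 7.31 and 7.32 in Chd1 shRNA replicates 1, 2 and 3, against 9.12, 8.72 and 8.99 in control replicates 1, 2 and 3. All 3 Chd1 shRNA arrays lay below all 3 control arrays, with replicate 1 nearest to the control arrays. The means were 7.57 ± 0.44 in Chd1 shRNA and 8.94 ± 0.20 in control (SD, n = 3 each), a log2 fold change of -1.37 (SE 0.25) and a signal of 38.7% of control. The same array table holds 1 probe for Lama1, so no other probe checks this value.

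The other alpha chain, Lama5, which takes the place of Lama1 in many later basement membranes, read 8.15, 8.12 and 8.17 in Chd1 shRNA, against 8.44, 8.39 and 8.04 in control. The lowest value belonged to control replicate 3, so the groups overlapped, and the log2 fold change was -0.14 (SE 0.18).

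Lamc1, the gamma chain that most laminins share, had 2 probes that disagreed in sign. Probe ILMN_2774596 read 9.23, 8.57 and 9.03 in Chd1 shRNA, against 9.30, 8.74 and 9.38 in control, a log2 fold change of -0.20 (SE 0.25). Probe ILMN_2974798 read 9.23, 8.71 and 9.19 in Chd1 shRNA, against 9.16, 8.69 and 9.04 in control, a log2 fold change of 0.08 (SE 0.22). On both probes replicate 2 was the lowest array of its group, and the groups overlapped.

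The beta chain Lamb1 could not be followed. Its probe ILMN_1253659 was not above background except in Chd1 shRNA replicate 2, where it read 5.31, and stood at 4.40 and 4.26 in Chd1 shRNA replicates 1 and 3, against 4.45, 4.40 and 4.44 in control. No fold is given for it, and these values say nothing on whether the beta chain RNA differed.

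**Figure D1:**
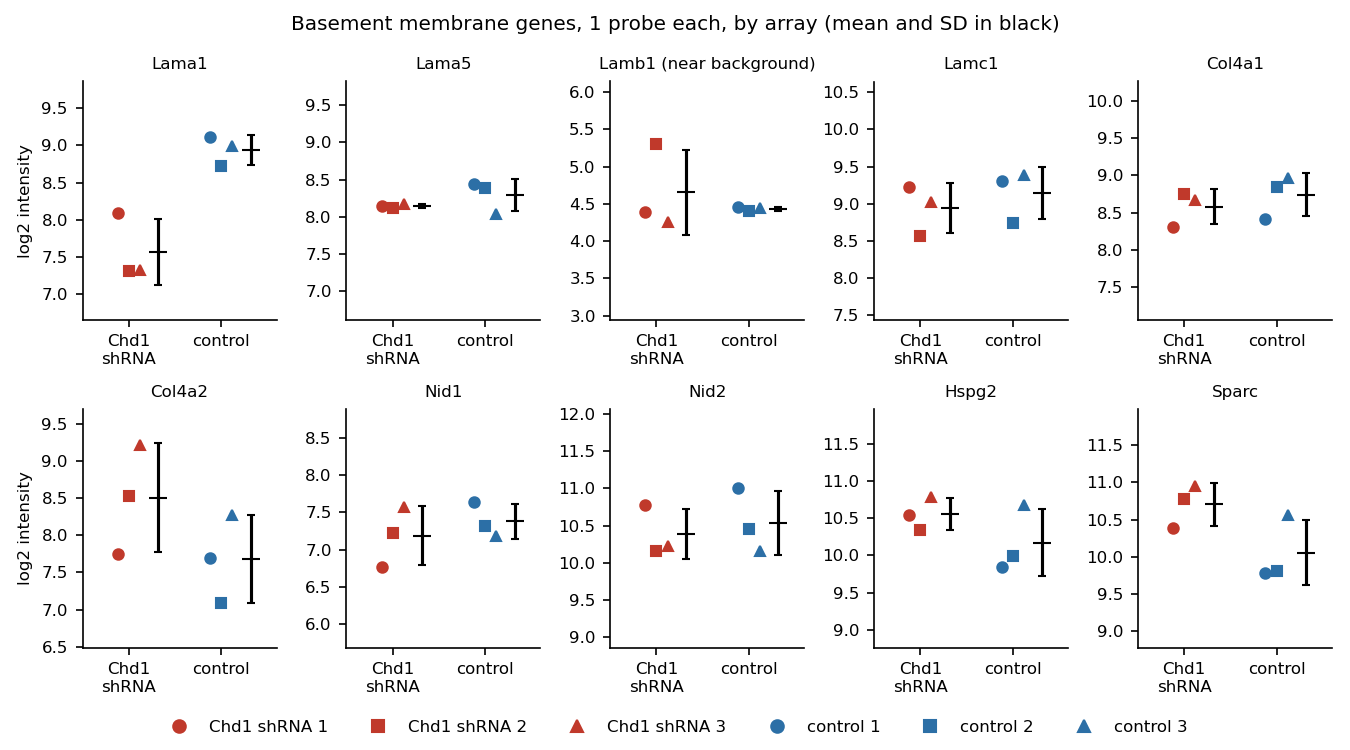
Log2 intensity (vertical axis, a span of equal length in every panel) of 1 probe for each of the 10 basement membrane genes on each array, Chd1 shRNA left in red and control right in blue, with the group mean and SD in black (3 arrays each). For Lama1 the red points lie at 7.31 to 8.08 and the blue ones at 8.72 to 9.12; in the other 9 panels the groups overlap, and the Lamb1 probe is near background.

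Lama1 was next set against its partner chains on the same array, which removes any difference between arrays that acts equally on the probes. Relative to the control mean, Lama1 minus Lamc1 was -0.94, -1.06 and -1.51 in Chd1 shRNA replicates 1, 2 and 3, against 0.01, 0.18 and -0.20 in control replicates 1, 2 and 3. The groups did not overlap, and the difference was -1.17 (SE 0.21) on the log2 scale, so Lama1 signal relative to Lamc1 was 0.444 times that of control. This value rests on Lamc1 probe ILMN_2774596. It was not computed with probe ILMN_2974798 alone, whose log2 fold change had the other sign, so its size depends on the probe. With the mean of Lamb1 and Lamc1 as partner, the values were -0.88, -1.78 and -1.48 in Chd1 shRNA, against 0.09, -0.0031 and -0.08 in control, a difference of -1.38 (SE 0.27). This second version takes in the Lamb1 probe, which was near background on 5 of the 6 arrays. Lamc1 alone was chosen as partner after the data had been seen.

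**Figure D2:**
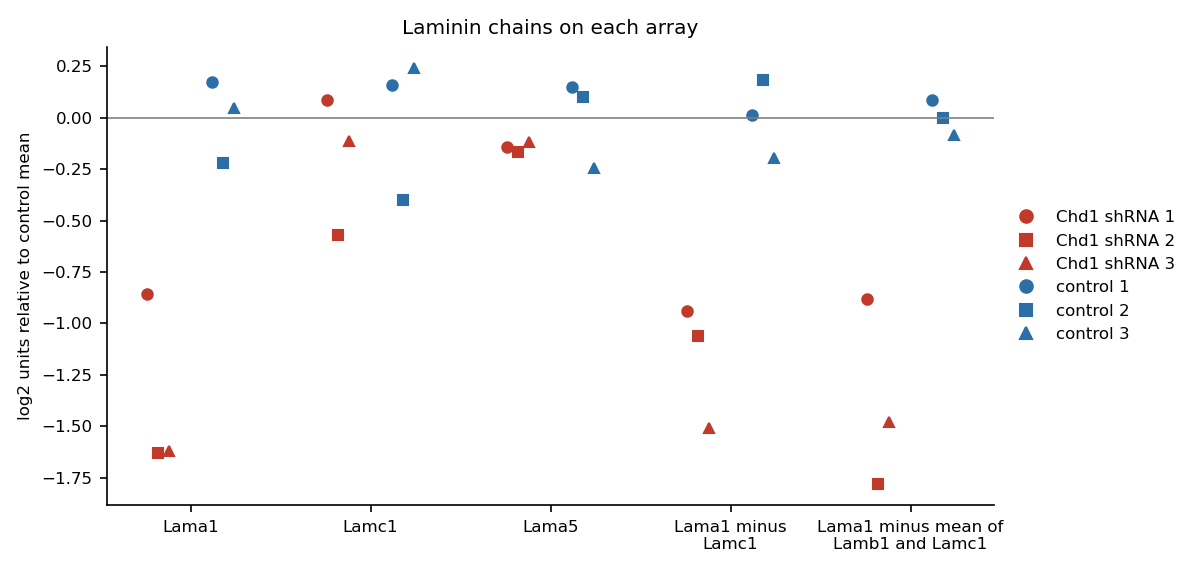
Log2 signal of Lama1, Lamc1 and Lama5, and of Lama1 minus its partner chains, on each array relative to the control mean (vertical axis; Chd1 shRNA in red at the left of each pair, control in blue). Lama1 lies at -1.63 to -0.86 in Chd1 shRNA and at -1.51 to -0.94 after Lamc1 is subtracted, while Lamc1 and Lama5 overlap between groups.

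The 2 collagen IV chains did not follow each other over the arrays. Col4a1 read 8.31, 8.75 and 8.67 in Chd1 shRNA, against 8.41, 8.85 and 8.96 in control, with overlapping groups and a log2 fold change of -0.16 (SE 0.21). Col4a2 read 7.75, 8.53 and 9.22 in Chd1 shRNA, against 7.69, 7.09 and 8.27 in control, a log2 fold change of 0.82 (SE 0.40). Its groups overlapped because control replicate 3 lay above Chd1 shRNA replicate 1. Single arrays moved the Col4a2 value from 0.46 without Chd1 shRNA replicate 3 and 0.52 without control replicate 2 to 1.19 without Chd1 shRNA replicate 1. Each gene had 1 probe, and which transcripts the probes read was not analysed here.

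The nidogens, which link laminin to collagen IV, had small values. For Nid1, probe ILMN_2814005 read 6.77, 7.23 and 7.57 in Chd1 shRNA, against 7.64, 7.32 and 7.18 in control, a log2 fold change of -0.19 (SE 0.24), with overlapping groups. Its second probe, ILMN_2560756, was above background in control replicate 2 only, and read 4.31, 4.32 and 4.64 in Chd1 shRNA, against 4.80, 5.45 and 4.69 in control, and no fold is given for it. Nid2 read 10.77, 10.17 and 10.23 in Chd1 shRNA, against 11.004, 10.45 and 10.16 in control, a log2 fold change of -0.15 (SE 0.26). For Nid2 and the brighter Nid1 probe, control replicate 1 was the highest array and the groups overlapped.

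Perlecan and Sparc had higher values in Chd1 shRNA, with overlap. Hspg2 probe ILMN_2685329 read 10.54, 10.34 and 10.78 in Chd1 shRNA, against 9.84, 9.99 and 10.68 in control, a log2 fold change of 0.38 (SE 0.25), and probe ILMN_2520249 gave 0.32 (SE 0.23). Sparc probe ILMN_3136561 read 10.39, 10.78 and 10.95 in Chd1 shRNA, against 9.79, 9.81 and 10.56 in control, a log2 fold change of 0.65 (SE 0.26). The other Sparc probes gave 0.54 (SE 0.26, ILMN_3059326) and 0.26 (SE 0.23, ILMN_1243212), the last close to background. For both genes control replicate 3 lay well above the other control arrays and within the Chd1 shRNA range.

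**Figure D3:**
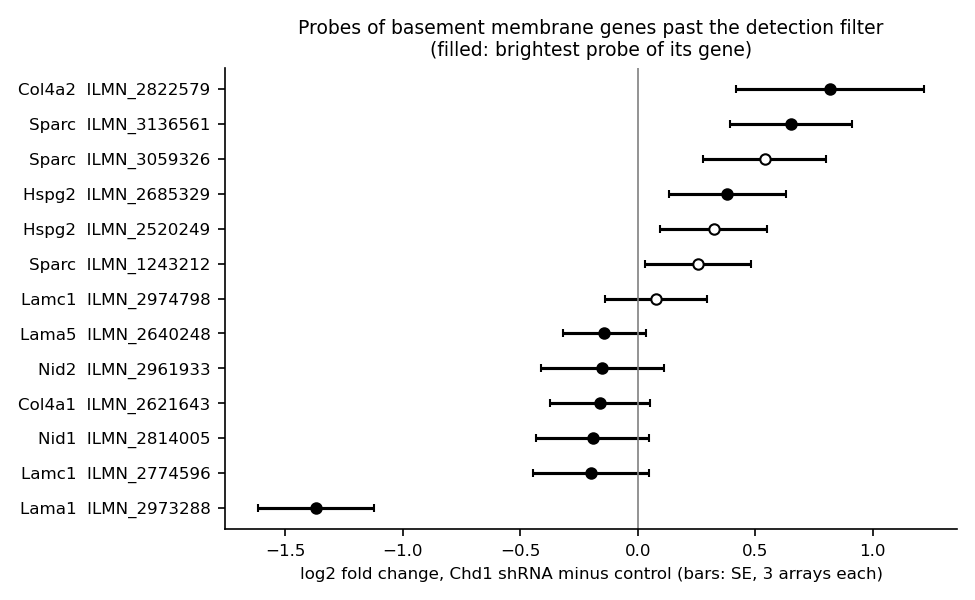
Log2 fold change (horizontal axis, Chd1 shRNA minus control, bars SE, 3 arrays per group) of the 13 probes past the detection filter, sorted by value. Lama1 stands at -1.37, apart from the other 12 probes, which lie between -0.20 and 0.82.

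Counted together, 3 of the 9 genes tested had positive and 6 had negative log2 fold changes, and their median was -0.15, beside 0.0012 for all 11600 genes and unnamed probes tested. The groups did not overlap for 1 of the 9, Lama1, where 16.1% of all genes tested did not overlap and 9.18% did so with lower Chd1 shRNA signal. With fewer arrays more genes of the whole table do not overlap. The members' count was 3 without Chd1 shRNA replicate 1, beside 35.5% of all genes, and 1 without Chd1 shRNA replicate 2 or 3, beside 21.3% and 23.6%. It was 2 without control replicate 1 or 2, beside 24% and 24.6%, and 5 without control replicate 3, beside 35.4%. No member passed an adjusted p of 0.05 (limma, Benjamini-Hochberg over the whole table), as 0% of all genes did, and at an unadjusted p under 0.05 there were 2 members, Lama1 and Sparc, beside 10.9% of all genes. The adjusted p of Lama1 was 0.177 by limma, and over the 17 alternatives of 1 choice each ran from 0.0481 with array weights to 0.625 without Chd1 shRNA replicate 2. It also passed, at 0.0499 by limma, with an intensity trend and robust variance. Without control replicate 3 and Chd1 shRNA replicate 1 together, an alternative chosen after the data had been seen, 3 members passed in limma, Lama1 at -1.60 (adjusted p = 0.0172), Sparc at 1.07 (adjusted p = 0.0324) and Col4a2 at 1.48 (adjusted p = 0.0443), among 721 of all genes (6.22%). In that fit of 2 arrays a group, 6 members and 55.2% of all genes did not overlap. These 2 arrays were picked by their measured fibroblast signal, the highest in control and the lowest in Chd1 shRNA, so leaving them out widens the gap in that signal between the groups. Since Lama1 was in the set because of this contrast, these p-values support nothing beyond the description. Median scaling, which moved the median of all genes to 0.21, gave Lama5, Lamc1, Col4a1, Nid1 and Nid2 positive values of 0.09 to 0.16, each below that median, and Lama1 -1.07. The sign of these 5 small values thus depends on the scaling.

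Fibroblast markers moved with some of these genes. Of 22 markers, 15 were tested, 14 of them with positive values, and the median of their log2 fold changes was 0.88, while Col1a2, Col3a1, Col5a2, Postn, Pdgfrb and S100a4 did not pass the detection filter. None of the 15 passed the adjusted threshold in limma, and 5 were higher at an unadjusted p under 0.05, beside 534 higher of all 11600 genes tested. The groups overlapped for all 15, where 16.1% of all genes did not overlap. Their summed intensity ranged from 11762 to 23684 in Chd1 shRNA and from 6243 to 18653 in control. The brightest were Acta2, a smooth muscle actin, with a log2 fold change of 1.09 (SE 0.47), the proteoglycan gene Bgn with 1.13 (SE 0.62), and fibronectin, Fn1, with 0.58 (SE 0.26). Their mean log2 intensity was 7.80, 8.81 and 8.82 in Chd1 shRNA replicates 1, 2 and 3, against 7.34, 7.20 and 8.42 in control replicates 1, 2 and 3. Col4a2 put the 6 arrays in the same order as this mean, and Sparc did so except for control replicates 1 and 2, which read 9.79 and 9.81. Lama1 did not follow this order: control replicate 3, with more fibroblast signal than Chd1 shRNA replicate 1, read 8.99 on Lama1, against 8.08 on that array. Within Chd1 shRNA, Lama1 was highest in replicate 1, which had the lowest fibroblast mean, and read 7.31 and 7.32 in replicates 2 and 3. Within control, replicate 2 was lowest on both. Whether fibroblast RNA bears on the Lama1 value was not tested. In bulk RNA, fewer cells of a type and less RNA per cell cannot be told apart.

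With the fibroblast mean as a covariate, a fit that leaves few degrees of freedom, the log2 fold change was -1.14 (SE 0.29) for Lama1, 0.05 (SE 0.29) for Col4a2, 0.18 (SE 0.21) for Sparc and 0.07 (SE 0.27) for Hspg2. The values of Lama5 (0.0030) and Nid2 (0.26) turned positive. That of Lama1 minus the mean of Lamb1, near background, and Lamc1 was -1.07 (SE 0.28). With this term the values of Lama1, Col4a2, Sparc and Hspg2 were all smaller in size. Those of Col4a1 (-0.42, SE 0.23), Nid1 (-0.31, SE 0.30) and Lamc1 (-0.22, SE 0.31) were larger in size. The adjusted p of Lama1 was 0.445 by limma in this fit. The fibroblast mean itself was mostly higher in Chd1 shRNA, so the fit cannot separate it from group, and causes were not tested.

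**Figure D4:**
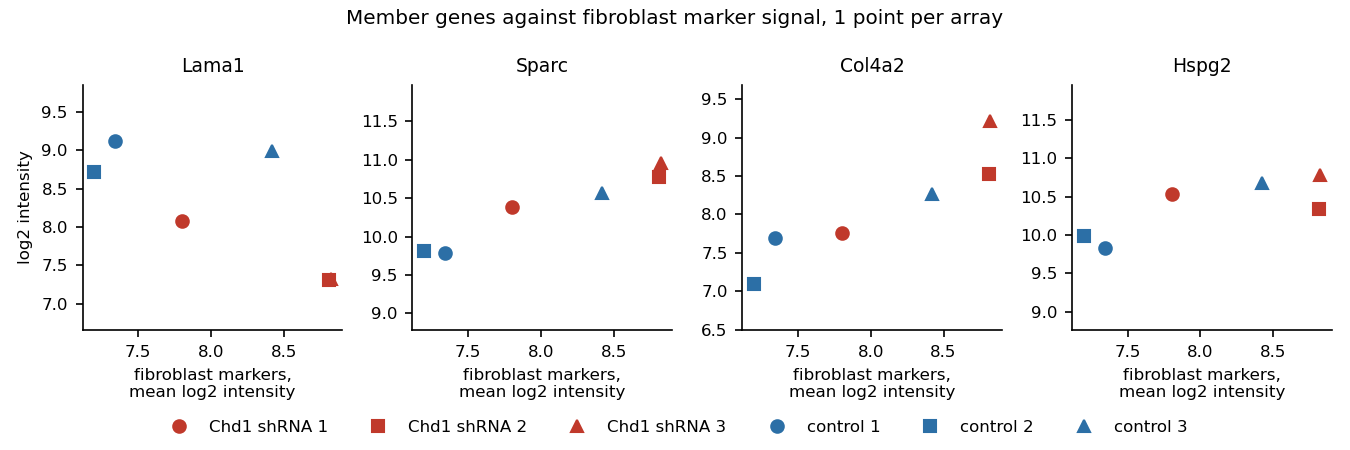
Log2 intensity of Lama1, Sparc, Col4a2 and Hspg2 (vertical axes) against the mean log2 intensity of 15 fibroblast markers (horizontal axis), 1 point per array, Chd1 shRNA in red and control in blue. Control replicate 3, at 8.42 on the fibroblast axis, lies between Chd1 shRNA replicates 1 and 2 there and on the Sparc and Col4a2 axes, and has a Lama1 value of 8.99.

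Pluripotent cell markers were mostly lower in Chd1 shRNA, as Lama1 was. Of the 14, 12 had negative and 2 positive log2 fold changes, with a median of -0.37. None passed the adjusted threshold in limma, and 4 were lower at an unadjusted p under 0.05, beside 734 of all 11600 genes tested. The groups did not overlap for 1, lower in Chd1 shRNA, beside 9.18% of all genes. Median scaling gave 10 negative values and a median of -0.22, beside 0.21 for all genes. Their mean log2 intensity was 9.99, 9.52 and 9.67 in Chd1 shRNA replicates 1, 2 and 3, against 10.26, 10.02 and 9.92 in control replicates 1, 2 and 3, and the groups overlapped. Of the 3 brightest, the transcription factor gene Esrrb read 13.45, 13.09 and 13.23 in Chd1 shRNA, against 13.79, 13.47 and 13.85 in control, a log2 fold change of -0.44 (SE 0.19) without overlap and with a Pearson r of 0.937 with Lama1 over the 6 arrays, which includes the difference between groups. Dppa4 had -0.13 (SE 0.19), with overlap. Dppa5a had -0.03 (SE 0.16), but it stood at 15.18, the top of the normalized scale, on 1 Chd1 shRNA and 2 control arrays, so its values cannot show a difference there. The part of these cells in the Lama1 value was not tested.

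Markers of other cell types that make basement membrane were read in the same way. Of 18 primitive and parietal endoderm markers 11 were tested, 7 with positive and 4 with negative values, and their summed intensity was 668 to 796 in Chd1 shRNA and 616 to 682 in control. The endoderm transcription factor genes Gata4, Sox17 and Foxa2 did not pass the detection filter. Lrp2, a large endocytic receptor, had a log2 fold change of -0.23 (SE 0.23), Dab2, an endocytic adaptor, 0.71 (SE 0.29), and Amn, a partner of the receptor cubilin, -0.85 (SE 0.20). Among the 11, the groups did not overlap for Amn only, where 16.1% of all genes did not overlap. None of the 11 passed the adjusted threshold in limma. At an unadjusted p under 0.05, 3 were higher and 1 lower, beside 10.9% of all genes in either direction. Of 8 endothelial markers 4 were tested, 3 with positive and 1 with negative values (median log2 fold change 0.39), and Cdh5, Kdr, Tie1 and Flt1 did not pass the filter. The summed intensity of those tested was 441 to 541 in Chd1 shRNA and 316 to 434 in control, without overlap. On their mean log2 intensity the groups did overlap. It was 6.87, 6.69 and 6.57 in Chd1 shRNA replicates 1, 2 and 3, against 6.52, 6.61 and 6.12 in control replicates 1, 2 and 3. Pecam1, an adhesion molecule, had a log2 fold change of 0.25 (SE 0.20), Eng, a TGF-beta co-receptor, 0.71 (SE 0.18), and Esam 0.54 (SE 0.23). The groups of Eng did not overlap, and those of the other endothelial markers tested did, where 16.1% of all genes did not overlap. None of the 4 passed the adjusted threshold in limma. At an unadjusted p under 0.05, 2 were higher, beside 534 higher of all 11600 genes tested. The part of these cell types in the values of the basement membrane genes was not tested.

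Other components of basement membranes gave no group-wide direction. Of 28 listed genes 8 were tested, 5 with positive and 3 with negative values (median log2 fold change 0.17). None passed an adjusted p of 0.05 in limma. At an unadjusted p under 0.05, 1 was higher and 1 lower, beside 10.9% of all genes in either direction. The groups did not overlap for 1 higher and 1 lower gene, where 16.1% of all genes did not overlap. Col4a5, a chain of another collagen IV trimer, was above background on all 3 Chd1 shRNA arrays and on no control array. It thus passed the detection filter, and counts among the 5 positive genes, only through the group where it was higher. Against control values raised to at least the lowest detected signal of each array, its mean was 1.41-fold higher. This fold has no error, the signal was close to background, and the adjusted p was 0.335 in limma. The laminin chain Lamb3 read 4.72, 5.02 and 4.78 in Chd1 shRNA, against 5.62, 5.57 and 5.27 in control, a log2 fold change of -0.65 (SE 0.18) with no overlap between groups, close to background. Lamb2, the beta chain that replaces Lamb1 in many adult basement membranes, had 0.59 (SE 0.31) with overlap.

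For receptors of the basement membrane, 12 of 17 genes were tested, 8 with positive and 4 with negative log2 fold changes, whose median was 0.20. None passed the adjusted threshold in limma, and 0 reached an unadjusted p under 0.05, beside 10.9% of all genes. The groups overlapped for all 12, where 16.1% of all genes did not overlap. The largest values were those of the integrin chain Itgav with 0.53 (SE 0.31), Gpc3, a cell surface heparan sulfate proteoglycan, with -0.51 (SE 0.24), and Itgb4, the epithelial partner of Itga6, with -0.47 (SE 0.24).

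Genes of collagen and laminin biosynthesis, crosslinking and turnover had mostly positive log2 fold changes, 20 of 22 tested out of 30 listed, and their median was 0.28. None passed the adjusted threshold in limma, and 2 were higher at an unadjusted p under 0.05, beside 534 higher of all 11600 genes tested. The metalloproteinase inhibitor Timp2 had 1.44 (SE 0.57), the collagen chaperone gene Serpinh1 1.02 (SE 0.46) and Timp3 0.95 (SE 0.42). Each of these 3 read higher in control replicate 3 than in Chd1 shRNA replicate 1, as the fibroblast mean did.

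Over the 6 arrays, the named genes whose signal was most like that of Lama1 were Cdk5rap2, a centrosome protein gene (Pearson r = 0.997), the kinase gene Alpk3 (0.995), Mfsd13a (0.994), Camkv (0.993) and Notum, which inactivates WNT proteins (0.992). All 5 had lower signal in Chd1 shRNA without overlap, from -0.36 for Cdk5rap2 to -1.50 for Notum, and each r includes the difference between groups. They were picked by likeness to Lama1, whose groups did not overlap, so this direction follows largely from the choice. Of all genes tested, 9.18% were lower without overlap. Camkv was above background on 1 Chd1 shRNA array and on all 3 control arrays, and its signal was close to background. It thus passed the detection filter mainly through the group where it was higher. Of the 9507 named genes tested, Lama1 included, 24 others had an r above 0.98. So few genes reached this r that the absence of the other basement membrane genes from them says nothing particular about these. Among the other basement membrane genes, the highest was Lamc1 with 0.573, below 2099 other named genes, and the lowest Sparc with -0.785.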

How the data were processed

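RNA of 6 samples, 3 Chd1 shRNA and 3 control, was grouped by the label for transfection, and replicate numbers follow accession order and pair no samples. The deposited table gives linear intensity values per probe, summarised with GenomeStudio per the submitters' processing notes and not background-subtracted. It also holds a detection p-value per probe and array, per the file headers. A second table of intensity values that the authors had processed served as an alternative, by a method that the sources used here do not give.

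Background was corrected by normal-exponential convolution from the detection p-values (offset 16), followed by quantile normalization and log2 (limma 3.58.1, R 4.3.3). The offset shrinks differences of dim probes, and quantile normalization removes shifts of a whole array. The 16018 probes whose detection p was under 0.05 on 3 or more arrays were kept, and each gene was represented by its brightest probe. The platform annotation gave 1 gene for 34885 probes, several for 18 and none for 10378. Groups were fitted with lmFit and eBayes over all 11600 genes and unnamed probes, and SEs come from this fit, or for second probes from the fit of all kept probes. SEs of Lama1 minus partner chains come from the spread of the 3 arrays per group. The fit was tested on simulated data. The number of arrays limits the precision.

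The members and lists were chosen with earlier results of these data known. Named are all members, the 3 genes of each list with the largest absolute change, the 3 brightest markers of each cell type and the 5 genes most like Lama1. Genes outside this rule are named only as undetected or to complete a count.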

Additional observations from a re-analysis of the deposited data

How the results depend on the processing

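The 17 alternatives changed 1 choice each: no background correction or an offset of 50, median or 75th percentile scaling, the authors' processed values, no detection filter or detection on all 6 arrays, trend with robust variance, array weights, the mean of a gene's probes, the fibroblast mean as a covariate, and each array left out. Lama1 stayed negative in all 17, from -1.63 to -1.05, and Col4a2, Sparc and Hspg2 stayed positive in the same 17. Lama5 and Nid2 with the covariate, Nid1 without Chd1 shRNA replicate 1 (0.02) and Nid2 without control replicate 1 (0.08) changed sign, as 5 members did with median scaling. Lama1 minus the mean of Lamb1 and Lamc1 was -0.99 without background correction and -0.996 with the authors' processed values, and without single arrays ran from -1.63 to -1.18. These values take in the Lamb1 probe, which was near background, and Lamc1 alone as partner was not run under these alternatives. Median scaling gave 8 members higher, 1 lower and 2 not overlapping, and the covariate gave 5 higher. Without single arrays, 3 to 4 members were higher, 5 to 6 lower and 1 to 5 not overlapping (all genes 21.3% to 35.5%). Past the adjusted threshold of limma lay 0 genes in the fit as reported, 2 with median scaling, 1 with 75th percentile scaling, 18 with trend and robust variance and 37 with array weights, the last 2 counts including 1 member each, Lama1. Unadjusted p-values under 0.05 were found for 1268 genes as reported, 2320 with no detection filter, 2572 with array weights, and 699 to 2052 without single arrays. Leaving out control replicate 3 and Chd1 shRNA replicate 1 together, added after the data had been seen and picked by measured fibroblast signal, gave 721 genes past the threshold with 3 members among them, 6 members not overlapping (all genes 55.2%), 2877 unadjusted p-values under 0.05, and Col4a1 at 0.08, a change of sign. The causes were not tested. No paired analysis was possible because the labels give no replicate numbers.

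Lamb1 and the second Nid1 probe lay near background and limit what is measured of these genes.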
